A study of Mus musculus with 16 samples.

Results

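Krüppel-like factor (KLF) genes were examined in mouse brown adipocytes through 10 members of the family, *Klf2*, *Klf3*, *Klf4*, *Klf5*, *Klf6*, *Klf7*, *Klf9*, *Klf10*, *Klf13* and *Klf15*. They were picked by symbol from the 54347 genes of the count table, and all 10 were found. All 10 also passed the low-count filter, as did 13150 genes in total. The cells were of the line wt1-SAM, immortalized brown preadipocytes that stably carry the CRISPRa SAM system, in which a guide RNA recruits activator proteins to a chosen gene. All cells were differentiated and, on day 4, reverse transfected with 250 ng of plasmid, which was either the empty vector or 2 vectors with single guide RNAs (sgRNAs) against the long noncoding RNA gene *Gm15551*. They were harvested on day 7, either unstimulated (ctrl) or after 24 h in 1 µM isoproterenol (iso), a β-adrenergic agonist. Rosiglitazone, T3, dexamethasone, insulin, indomethacine and IBMX were used to differentiate every group, controls included. Replicate numbers 3, 4, 5 and 6 each occurred once in the empty ctrl, empty iso, sgRNA ctrl and sgRNA iso groups, which gave 16 libraries in 4 groups of 4. The labels do not say that the replicates were separate cultures, so the p-values measure the spread between these libraries of 1 cell line.

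KLF proteins are transcription factors that bind GC-rich and CACCC sequences through zinc fingers at their carboxyl end, while their other parts recruit coactivators or corepressors. In fat cell formation, members are known to act in sequence. *Klf4* and *Klf5* belong to the early activators, *Klf2*, *Klf3* and *Klf7* hold preadipocytes back, and *Klf9* and *Klf15* act later and respond to glucocorticoids. β-adrenergic agonists raise cyclic AMP, and the transcription factor CREB then binds cyclic AMP response elements (CREs).

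The promoters of *Klf4*, *Klf7* and *Klf15* are shown because these were the members that were higher with isoproterenol in every pair of libraries. How many of all tested genes were so was not counted. *Wwp1* and *Itch*, ubiquitin ligases that were not called, also rose in every pair. *Ctbp1*, *Kat2b* and *Smurf1*, not called either, fell in every pair. Each sequence runs from 250 bases before to 50 bases after the gene start in RefSeq (GRCm38.p6), 5′ to 3′ on the gene's strand. Capitals mark the CRE half-site TGACG or its reverse complement CGTCA.
*Klf4* (chr4:55532426-55532725, minus strand): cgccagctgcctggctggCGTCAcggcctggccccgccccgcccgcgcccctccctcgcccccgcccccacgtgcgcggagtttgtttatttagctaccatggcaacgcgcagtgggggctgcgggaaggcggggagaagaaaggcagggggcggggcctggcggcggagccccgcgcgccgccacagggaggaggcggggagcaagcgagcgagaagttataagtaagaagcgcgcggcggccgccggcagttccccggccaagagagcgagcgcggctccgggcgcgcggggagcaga
*Klf15* (chr6:90462326-90462625, plus strand): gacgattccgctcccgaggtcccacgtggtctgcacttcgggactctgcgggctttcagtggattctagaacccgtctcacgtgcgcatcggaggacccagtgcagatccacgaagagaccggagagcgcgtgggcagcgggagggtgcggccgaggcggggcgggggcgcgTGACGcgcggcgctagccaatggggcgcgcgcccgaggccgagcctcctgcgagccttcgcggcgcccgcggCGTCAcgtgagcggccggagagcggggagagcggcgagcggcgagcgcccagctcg
*Klf7* (chr1:64121340-64121639, minus strand): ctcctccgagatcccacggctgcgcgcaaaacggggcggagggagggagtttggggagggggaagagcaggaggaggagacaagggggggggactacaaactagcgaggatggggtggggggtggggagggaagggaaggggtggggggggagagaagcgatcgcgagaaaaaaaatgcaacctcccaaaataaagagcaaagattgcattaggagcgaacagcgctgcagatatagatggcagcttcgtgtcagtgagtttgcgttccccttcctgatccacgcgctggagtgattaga
*Klf4* has 1 half-site, which begins at position -232 from the start. *Klf15* has 2, at -78 and -6, and the second overlaps an E-box (CACGTG). *Klf7* has none in this window. The GENCODE gene model of *Klf7* starts further upstream, at 64122282, so this window lies inside it. The sequence before that start was not searched. Of the 8 members with a promoter entry, 6 held a half-site on either strand, as did 20.8% of all 32851 promoters and 31.8% of those within the members' GC content of 58.3% to 76.7%. The 6 were *Klf2*, *Klf3*, *Klf4*, *Klf9*, *Klf13* and *Klf15*, of which *Klf4* alone passed the test for isoproterenol described below. The full palindrome TGACGTCA was in 0 of the 8 and in 1.79% of all promoters. *Klf5* and *Klf10* are named only.

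Libraries held 9053521 to 16546187 counts in total. One ribosomal RNA gene took 11.7% to 51.8% of them, which left 5900607 to 12959314 counts for all other genes. Its share was 19.7% to 51.8% in libraries with the empty vector and 11.7% to 28.7% in those with sgRNA, and it was over 40% in 3 libraries (empty iso replicates 3 and 5, empty ctrl replicate 5). *Gm15551* had 0 to 18 counts with the empty vector and 13 to 56 with sgRNA. It was 2.37 higher on the log2 scale with sgRNA (edgeR, adjusted p = 0.0989, or 0.00055 once replicate number entered the model as a block). Adipocyte markers were abundant, with 7 genes that summed to 10132 to 23457 CPM (counts scaled to library size), while 6 endothelial markers together stayed between 1.42 and 3.46 CPM. *Fabp4* made up most of the adipocyte sum, with a mean of 14462 CPM over 16 libraries. The others had means from 134 (*Pparg*) to 1138 (*Cidec*) CPM. The brown adipocyte marker *Ucp1* was low, at 0.350 ± 0.302 CPM in empty ctrl and 6.42 ± 2.67 CPM in empty iso (SD, n = 4), and *Dio2* had 0 counts in 3 of the 4 groups.

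The levels of the 10 genes spanned a wide range and fell into steps. Scaled by the merged exon length of the gene (CPM per kb), *Klf9* was the highest with 10.2 ± 1.18, followed by *Klf10* with 9.56 ± 1.83 and *Klf6* with 9.25 ± 1.07 (SD over 16 libraries). *Klf9* exceeded *Klf10* in 9 of 16 libraries and *Klf10* exceeded *Klf6* in 8 of 16, so *Klf10* was not separated from either, while *Klf9* exceeded *Klf6* in 13 of 16. *Klf6* lay above *Klf15* in 16 of 16 libraries and their ranges did not overlap. *Klf15* (3.42 ± 0.635), *Klf13* (3.25 ± 0.755) and *Klf4* (2.53 ± 0.781) formed the next step, in which *Klf15* was above *Klf13* in 8 of 16 libraries and *Klf13* above *Klf4* in 11 of 16. The order within this step differed by treatment, since *Klf13* was above *Klf4* in 8 of 8 ctrl libraries and below it in 5 of 8 iso libraries, and *Klf15* was above *Klf13* in 2 of 8 ctrl and 6 of 8 iso libraries. *Klf7* (1.11 ± 0.331 CPM per kb) and *Klf3* (0.900 ± 0.228) came next and were ordered this way in 13 of 16 libraries. *Klf4* was above *Klf7*, and *Klf3* above *Klf2*, in 16 of 16 libraries, although the ranges over the libraries overlapped in both cases. *Klf7* was above *Klf2* in 15 of 16. *Klf2* (0.404 ± 0.266) and *Klf5* (0.247 ± 0.0533) were the lowest, with *Klf2* above *Klf5* in 12 of 16. *Klf2* rested on 0 to 22 counts per library and *Klf5* on 7 to 25. The isoproterenol log2 fold change averaged over plasmids had an SE of 0.55 for *Klf2*, too wide for a precise value, and 0.20 for *Klf5*. In bulk libraries such as these, fewer cells that express a gene and less RNA per cell cannot be told apart.

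**Figure D1:**
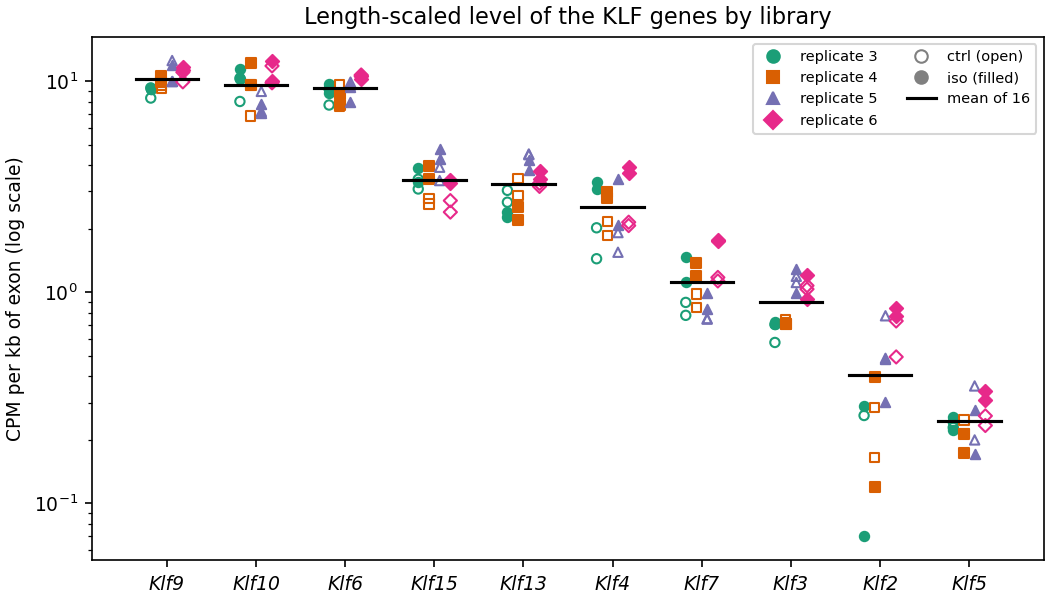
Level of each KLF gene in CPM per kb of merged exon (log axis) in the 16 libraries, with open symbols for ctrl, filled symbols for iso, colour and shape for the replicate number and a bar for the mean of 16. The library with 0 counts of *Klf2* (sgRNA ctrl replicate 3) is not drawn. *Klf9*, *Klf10* and *Klf6* lie together near 10, and *Klf2* and *Klf5* lie below 1.

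The first comparison asked which KLF genes respond to β-adrenergic stimulation, averaged over both plasmids. *Klf4* rose, and it was the 1 member of 10 that passed the test (edgeR, adjusted p below 0.05 with a log2 fold change beyond 0.5 in either direction), where 2.65% of all tested genes did (349 of 13150). With the replicate number as a block in the same edgeR model, *Klf4* and *Klf7* passed, 2 of 10 members, against 5.7% of all genes. The log2 fold change was positive for 7 of the members and negative for 3, and its median over the members was 0.10, compared with 0.0047 over all tested genes.

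*Klf4* (ENSMUSG00000003032.8, chr4:55527143-55532466, GRCm38, minus strand) encodes one of the factors that reprogram somatic cells to pluripotency and is induced early in adipogenesis. In the empty ctrl group it stood at 4.39, 5.65, 5.84 and 6.54 CPM in replicates 3, 4, 5 and 6, and in the empty iso group at 9.41, 9.08, 10.4 and 11.9 CPM. Every stimulated library with the empty vector was thus above every unstimulated one. In the sgRNA ctrl group the same replicates gave 6.16, 6.61, 4.72 and 6.31 CPM, and in the sgRNA iso group 10.1, 8.54, 6.33 and 11.2 CPM. Here the groups overlapped, through replicate 5 of sgRNA iso, although each stimulated library was above its own control. *Klf4* was higher with isoproterenol in 8 of 8 pairs, by 0.36 to 1.07 on the log2 scale. Averaged over plasmids, it rose 1.67-fold (log2 fold change 0.74, SE 0.13, edgeR adjusted p = 0.00345), and with the replicate block its adjusted p was 0.000167. Without replicate 3 the log2 fold change was 0.68 and the call was lost (edgeR adjusted p = 0.072), while with that replicate left out and the block included *Klf4* passed (0.67, adjusted p = 0.00191). The call was lost also in replicates 5 and 6 only (0.76, edgeR adjusted p = 0.288, and 0.0107 with the block) and under glmTreat, which tests against the bound of 0.5 rather than 0 (adjusted p = 0.763). It held without the 3 libraries of high ribosomal RNA share (0.77, edgeR adjusted p = 0.023).

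Split by plasmid, *Klf4* increased from 5.61 ± 0.895 to 10.2 ± 1.29 CPM in empty vector cells (SD, n = 4), a log2 fold change of 0.87 (SE 0.19, edgeR adjusted p = 0.034). It was the 1 member that passed there, compared with 0.829% of all genes, and with the block *Klf4* and *Klf7* passed, compared with 4.47%. Without the block that share lay between 0.264% and 1.35% when a replicate number or library was left out. The call of *Klf4* in empty vector cells was close to the threshold: it was lost in 14 of the 20 fits that left out a replicate number or a library, with adjusted p values up to 0.374 (without replicate 3), and in 0 of 20 with the block, where the highest was 0.0237. It was lost also in replicates 3 and 4 only (0.86, edgeR adjusted p = 0.0543) and without the 3 libraries of high ribosomal RNA share (0.94, edgeR adjusted p = 0.263, and 0.0073 with the block). In sgRNA cells *Klf4* went from 5.95 ± 0.844 to 9.04 ± 2.103 CPM, a log2 fold change of 0.60 (SE 0.18, edgeR adjusted p = 0.225, and 0.0224 with the block). The blocked call held in 11 of the 20 fits with 1 replicate number or library left out, with adjusted p values of 0.0139 to 0.196. There, 0 of 10 members passed in edgeR, compared with 0.7% of all genes, and 0 by DESeq2, compared with 0.505% of the genes with any count. Here and below, DESeq2 shares are over 34821 genes, which include those under the low-count filter. They are not like the edgeR shares over 13150 genes. In edgeR 2 members and 8.46% of all genes were at an unadjusted p under 0.05. With the block 1 member passed, *Klf4*, compared with 3.9% of genes. The test of the difference between the plasmids gave -0.27 for *Klf4* (95% interval -0.82 to 0.28, edgeR adjusted p = 1.00), so the effect was not shown to differ between them. Leaving out 1 replicate number or library moved this difference to between -0.39 (without sgRNA iso replicate 6) and -0.14 (without sgRNA iso replicate 5).

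*Klf7* (ENSMUSG00000025959.13, chr1:64029447-64122282, minus strand) encodes a factor that restrains adipocyte differentiation. It stood at 6.32, 6.90, 6.10 and 9.55 CPM in replicates 3 to 6 of empty ctrl and at 11.98, 11.1, 6.74 and 14.3 CPM in the same replicates of empty iso. With sgRNA the values were 7.28, 7.98, 6.06 and 9.20 CPM in ctrl and 9.06, 9.73, 8.09 and 14.3 CPM in iso. The groups overlapped with either plasmid, because replicate 5 was low and replicate 6 high in each of them, while within each replicate the stimulated library was the higher one. All 8 pairs rose, by 0.14 to 0.91 on the log2 scale. The averaged log2 fold change was 0.53 (SE 0.16), which did not pass without the block (edgeR adjusted p = 0.0834) and passed with it (0.52, SE 0.083, adjusted p = 0.000345). Without a block it was called by DESeq2 (0.53, adjusted p = 0.0369), and in edgeR in replicates 3 and 4 only (0.53, adjusted p = 0.0201), without empty iso replicate 5 (0.61, adjusted p = 0.0212) and without empty ctrl replicate 6 (0.61, adjusted p = 0.0406). With the block and 1 replicate number or library left out, it lay between 0.48 and 0.57, on both sides of the bound of 0.5, so that it passed in 14 of 20 such fits, with adjusted p values of at most 0.0107. Of the merged exon bases of *Klf7*, 39.3% also belong to *Gm26649*, a long noncoding RNA gene on the opposite strand. *Gm26649* was not among the genes counted here. Whether read strand was used in counting is not given in the sources used here, so reads of these 2 genes cannot be told apart over that stretch.

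*Klf15* (ENSMUSG00000030087.11, chr6:90462576-90475238, plus strand), a glucocorticoid-inducible gene whose product raises the glucose transporter GLUT4 and amino acid breakdown, was also higher in 8 of 8 pairs. It stood at 9.57, 7.75, 10.9 and 7.58 CPM in replicates 3 to 6 of empty ctrl and at 10.8, 11.1, 11.96 and 9.17 CPM in empty iso. In sgRNA cells it stood at 8.60, 7.30, 9.43 and 6.69 CPM in ctrl and at 9.33, 9.56, 13.3 and 9.53 CPM in iso. The groups overlapped with both plasmids. The averaged log2 fold change was 0.32 (SE 0.12, edgeR adjusted p = 0.137). With the block it was 0.33 (SE 0.073, edgeR adjusted p = 0.0041), which passed the adjusted p but stayed under the fold bound. By adjusted p alone, 3 of 10 members and 21.3% of all genes passed in that fit. Without replicate 4 the blocked log2 fold change of *Klf15* was 0.28 and its edgeR adjusted p was 0.0555, above the threshold.

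**Figure D2:**
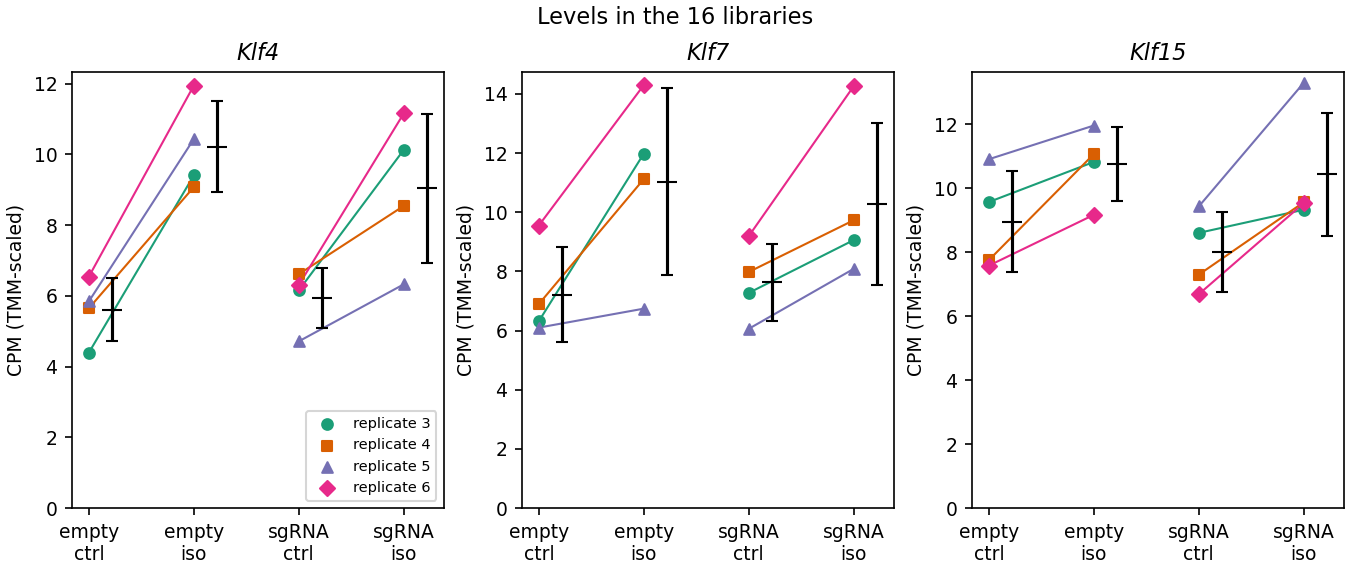
Level of *Klf4*, *Klf7* and *Klf15* in CPM (linear axis from 0) in each library. Lines join ctrl and iso of the same replicate number and plasmid, and the bars give the mean ± SD of 4 libraries. All 8 lines of each gene go up, and for *Klf4* with the empty vector the iso libraries (9.08 to 11.9) lie above the ctrl libraries (4.39 to 6.54).

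The other 7 members did not pass in either fit. *Klf5*, an activator of *Pparg* in early adipogenesis, stood at 1.19 ± 0.14 CPM in empty ctrl and 1.19 ± 0.30 CPM in empty iso. Averaged over plasmids, its log2 fold change was -0.018 (95% interval -0.44 to 0.40). *Klf2*, known from blood vessel endothelium and as a repressor of *Pparg* in preadipocytes, had an interval of -1.04 to 1.29, which is too wide to read a size from. Its pairs went down in 3 of 4 replicates with the empty vector and up in 3 of 4 with sgRNA, and the test of that difference gave 1.13 (95% interval -1.22 to 3.47), or 1.48 with the block (-0.016 to 2.98), with an edgeR adjusted p of 1.00 in both. Leaving out 1 replicate number or library moved the unblocked difference to between 0.67 (without sgRNA iso replicate 6) and 1.89 (without empty iso replicate 6). *Klf3*, which represses through the corepressor CtBP, differed by 0.024 (95% interval -0.37 to 0.42). *Klf6*, which was cloned as an early response gene and is among the 3 highest members, differed by -0.032, and its interval of -0.22 to 0.16 excludes a change of 0.5.

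*Klf9*, *Klf10* and *Klf13* recruit the corepressor SIN3A. *Klf9*, a target of glucocorticoid and thyroid hormone receptors, changed little (45.5 ± 3.72 to 48.5 ± 4.26 CPM in empty vector cells, log2 fold change averaged over plasmids 0.073, 95% interval -0.10 to 0.25). *Klf10*, first described as a gene that TGF-β induces early, was 33.3 ± 5.56 CPM in empty ctrl and 39.7 ± 7.62 CPM in empty iso. Its averaged log2 fold change of 0.16 had an edgeR adjusted p of 0.53, and 0.146 with the block. *Klf13* was lower with isoproterenol in 6 of 8 pairs, with a log2 fold change of -0.16 (adjusted p = 0.691, and 0.126 with the block).

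**Figure D3:**
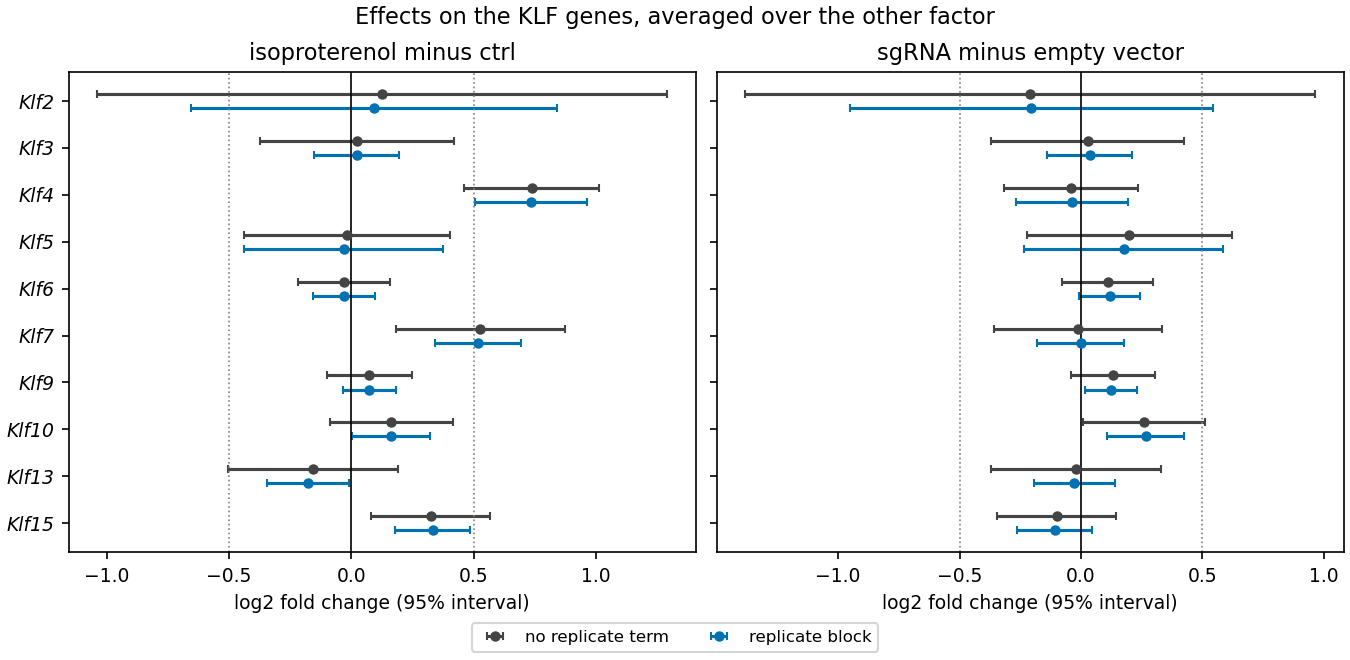
Log2 fold change and 95% interval of the 10 KLF genes for isoproterenol (left, positive is higher with iso) and sgRNA (right, positive is higher with sgRNA), without a replicate term (grey) and with the replicate block (blue). Dotted lines mark the fold bound of 0.5 in either direction. *Klf4* (0.74) and *Klf7* (0.53) lie past it on the left, and no gene does on the right.

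The next comparison asked whether guides against *Gm15551* altered KLF genes, averaged over treatments. In edgeR 0 of 10 members passed, where 0% of all genes did, with 1 member and 3.32% of all genes at an unadjusted p under 0.05. With the block 0 of 10 passed against 0.266% of all genes, and 2 members were at an unadjusted p under 0.05, as were 11.5% of all genes. DESeq2 called 0 members and 0.0287% of the genes with any count. The smallest p was that of *Klf10* (ENSMUSG00000037465.10), which was higher with sgRNA in 7 of 8 pairs. It stood at 33.5, 28.6, 30.0 and 41.0 CPM in replicates 3 to 6 of empty ctrl and at 43.1, 39.99, 37.3 and 49.3 CPM in sgRNA ctrl. In the stimulated groups it stood at 47.7, 39.8, 29.4 and 41.8 CPM with the empty vector and at 42.6, 51.0, 32.7 and 51.8 CPM with sgRNA. Groups overlapped in both treatments. The log2 difference was 0.26 (95% interval 0.0077 to 0.51, edgeR adjusted p = 1.00), and 0.27 with the block (0.11 to 0.43, adjusted p = 0.16). The ribosomal RNA share also differed between the plasmids, as given above, and with that share as a covariate beside the block the difference was 0.29 (edgeR adjusted p = 1.00). *Klf9* was higher with sgRNA in 7 of 8 pairs too, by 0.13 (adjusted p = 1.00, and 0.359 with the block), and by 0.033 with the share as a covariate. For *Klf4* the difference was -0.041 (95% interval -0.32 to 0.23, and 0.27 with the block and the share as a covariate) and for *Klf7* -0.012 (-0.36 to 0.33).

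Whether the response to isoproterenol depended on the plasmid was tested by the interaction. In edgeR 0 of 10 members passed and 0% of all genes, with 0 members and 0.395% of all genes at an unadjusted p under 0.05. With the block the counts of members were also 0, beside 0% and 1.51% of all genes, and DESeq2 called 0 members and 0% of the genes with any count.

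The replicate number accounted for much of the variation of several members, as a share of the sum of squares of log2 CPM. It took 88.9% for *Klf3*, 76.6% for *Klf13*, 65.0% for *Klf2* and 60.4% for *Klf9*, compared with a median of 46.8% over all tested genes. *Klf3* stood at 7.61 ± 0.745 CPM in replicate 3 and 8.07 ± 0.21 CPM in replicate 4, and at 12.9 ± 1.42 CPM in replicate 5 and 11.9 ± 1.29 CPM in replicate 6 (SD over the 4 groups of a replicate). *Klf13* split the same way, with 19.5 and 20.8 CPM in replicates 3 and 4 and 32.1 and 25.6 CPM in replicates 5 and 6. The share of the replicate number was below that median for *Klf4* (11.1%), *Klf5* (25.9%), *Klf15* (45.3%) and *Klf10* (45.4%), and it was 50.1% for *Klf7* and 54.6% for *Klf6*. Isoproterenol took 70.3% for *Klf4*, where the median over all genes was 6.79%. It took 39.8% for *Klf7* and 39.4% for *Klf15*. *Klf5* was mostly residual, with 62.5%.

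**Figure D4:**
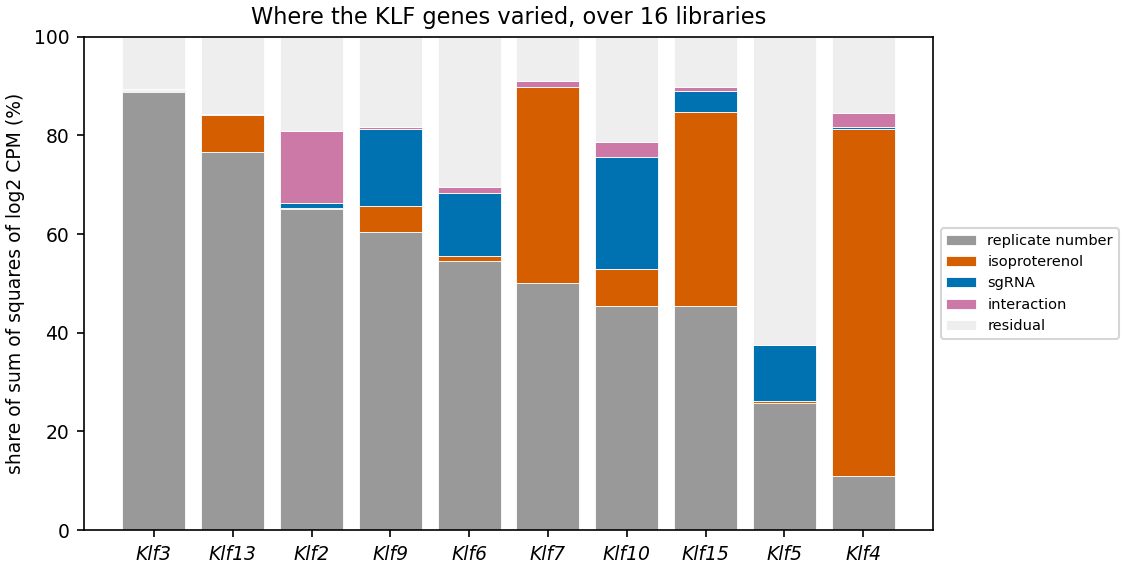
Share of the sum of squares of log2 CPM (%) of each KLF gene that goes to the replicate number, isoproterenol, sgRNA, their interaction and the residual, over 16 libraries. The replicate number takes 88.9% for *Klf3*, and isoproterenol takes 70.3% for *Klf4*.

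Genes were also ranked by how closely they followed *Klf4* over the 16 libraries, with log2 CPM centred within each replicate number. The nearest were *Bag3*, a cochaperone of HSP70 (Pearson r = 0.95), *Pabpc1*, the cytoplasmic poly(A) binding protein (r = 0.94), and *Cobll1* (r = 0.93). These values describe likeness in libraries that share the same treatments and carry no test. With isoproterenol their log2 fold changes were 0.495 for *Bag3* (edgeR adjusted p = 0.00944), 0.19 for *Pabpc1* (0.114) and 0.39 for *Cobll1* (0.105), so none of the 3 passed, *Bag3* because it lay under the fold bound.

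Further family members were few. Over all genes, 17.7% were at an unadjusted p under 0.05 for isoproterenol, and 33.5% with the block, while 2.65% and 5.7% were called, and 1.35% of the genes with any count by DESeq2. Of 7 other KLF genes, 3 could be tested (*Klf11*, *Klf12* and *Klf16*) and 0 passed in either fit. Of the 3, 1 had an unadjusted p below 0.05, and DESeq2 called 0. *Klf16* was the highest of them per length, at 2.80 CPM per kb, and its log2 fold change was -0.033. *Klf12*, at 0.113 CPM per kb, had the largest log2 fold change in size, 0.42. It was higher in 5 of 8 pairs and lower in 3, from -0.70 to 1.70. *Klf11*, a relative of *Klf10*, was lower with isoproterenol in 7 of 8 pairs (-0.31, edgeR adjusted p = 0.166, and -0.29 with adjusted p = 0.021 with the block, under the fold bound). Among the related SP factors, 4 of 9 were tested and 0 passed in either fit, with 1 at an unadjusted p under 0.05 and 0 by DESeq2. The highest was *Sp3* at 16.2 CPM per kb. Of 16 cofactors and ubiquitin ligases of KLF proteins, all were tested and 0 passed in either fit, with 5 at an unadjusted p under 0.05 (7 with the block) and 0 by DESeq2, and *Hdac1* was the highest with 22.7 CPM per kb.

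The MEF2-ERK5 axis is known to act upstream of *Klf2* and *Klf4* in endothelium. Of 8 genes of this axis and targets of KLF2 and KLF4, 7 were tested and 2 passed with or without the block, compared with 5.7% and 2.65% of all genes, 1 in each direction. *Thbd*, which encodes the anticoagulant receptor thrombomodulin, rose from 15.9 ± 6.80 to 93.7 ± 27.1 CPM with the empty vector and from 15.4 ± 5.27 to 76.2 ± 23.7 CPM with sgRNA, a log2 fold change of 2.43 (SE 0.24, edgeR adjusted p = 1.57e-05). *Nos3*, the endothelial nitric oxide synthase, fell from 6.72 ± 2.51 to 2.901 ± 1.52 CPM and from 6.78 ± 2.57 to 3.40 ± 1.66 CPM (-1.11, SE 0.29, adjusted p = 0.0421). The *Nos3* call was lost in edgeR without replicate 3 (adjusted p = 0.307), 4 (0.0834) or 6 (0.124). *Txnip* was the highest of the list with 183 CPM per kb. The median log2 fold change of the 7 was 0.021.

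Of 12 genes that comprise the glucocorticoid receptor and its targets, 11 were tested, of which 1 passed and 4 did with the block, compared with 2.65% and 5.7% of all genes. *Pdk4*, a kinase that shuts off pyruvate oxidation, passed (0.59, SE 0.15, edgeR adjusted p = 0.0345), and with the block so did *Mt1* (0.54, adjusted p = 0.00121), *Mt2* (0.54, adjusted p = 0.00517) and, in the opposite direction, *Fkbp5* (-0.64, adjusted p = 1.33e-06). DESeq2, without a block, called *Pdk4* and *Mt1*, beside 1.35% of the genes with any count. *Mt1* and *Mt2* encode metallothioneins, *Fkbp5* a cochaperone of the receptor, and *Mt2* was the highest of the list. The *Pdk4* call was lost in edgeR without replicate 3 (adjusted p = 0.248), 4 (0.0503) or 6 (0.12). The median of the list was 0.15. Of 9 TGF-β targets, 1 passed (2 with the block), beside the same shares of all genes. It was *Skil*, which encodes a SMAD corepressor (0.56, edgeR adjusted p = 0.0116), and with the block *Id2* did too (1.04, adjusted p = 8.92e-07). The *Skil* call was lost in edgeR without replicate 3 (adjusted p = 0.181). *Id1* was the highest of this list with 56.4 CPM per kb, and the median was 0.048.

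Of 13 genes reported downstream of adipocyte KLFs, 11 were tested and 0 passed in the fit lacking a block, where 5 had an unadjusted p below 0.05, compared with 17.7% of all genes. DESeq2 called *Cebpa*, and with the block *Cebpa* (-0.72, adjusted p = 0.000236) and *Plin1* (-0.57, adjusted p = 0.000217) passed, 2 of 11 compared with 5.7% of all genes. *Cebpa*, a master regulator of adipocyte identity, was the highest of the list and lower in 8 of 8 pairs. The log2 fold change was negative for 9 of the 11, with a median of -0.31.

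Markers of other cell types were measured beside *Klf4*, which is also known from macrophages and smooth muscle. Of 6 macrophage markers 2 could be tested and both rose with isoproterenol, *Cd68* by 0.91 (edgeR adjusted p = 0.00518) and *Cd14* by 0.82 (adjusted p = 0.00384). The 6 markers summed to 10.5 to 17.5 CPM in empty ctrl and 19.2 to 27.6 CPM in empty iso, and to 8.91 to 16.04 and 17.2 to 25.97 CPM with sgRNA. *Adgre1* was at 0 in 3 of the 4 groups, and *Csf1r*, *Ptprc* and *Lyz2* did not pass the low-count filter. Of 4 smooth muscle markers 3 were tested, and 0 passed in the fit lacking a block (1 at an unadjusted p under 0.05, 0 by DESeq2) and 3 with it, each lower with isoproterenol. Their sum was 4.47 to 34.1 CPM in empty ctrl and 3.38 to 19.2 CPM in empty iso. For all these markers, the share of all genes called was 2.65%, and 5.7% with the block. Among 7 adipocyte markers 4 fell (5 with the block), and among 7 tested brown adipocyte markers 2 rose, *Ucp1* by 4.03 and *Ppargc1a* by 0.71 (3 with the block). Of 6 preadipocyte markers 3 were tested and 0 passed in the fit lacking a block (0 at an unadjusted p under 0.05, 0 by DESeq2), while *Ly6a* rose with it. The part of these markers in the *Klf4* result was not tested.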

How the data were processed

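RNA of 16 libraries was sequenced. The authors trimmed reads with cutadapt and estimated counts per gene with salmon against a Gencode annotation of GRCm38, and they deposited these expected counts without normalization. Whether strand was used is not given in the sources used here. Counts were rounded to whole numbers, and columns not mapped to a sample numbered 0. Genes were kept by filterByExpr (minimum count 10, minimum total 15) and scaled by TMM. The quasi-likelihood test of edgeR 4.0.16 (R 4.3.3) was fitted to the 4 group means of all 16 libraries, with Benjamini-Hochberg adjustment over all tested genes. A call needed an adjusted p below 0.05 and a log2 fold change beyond 0.5 in either direction. CPM were TMM-scaled, and log2 CPM used a prior count of 2. Total counts limit the precision, and 3 counts served as the floor of a library.

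Replicate numbers were taken to pair the libraries because, after removal of group means, libraries of the same number correlated in every pair of groups (r = 0.22 to 0.61, while between different numbers of other groups the median was -0.21 and the highest 0.52, which overlaps that range), which is a hint from the data since the labels do not state it. Because group means were removed, positive values for the same number force negative values between different numbers. The median of -0.21 is thus no separate evidence of pairing. The median biological coefficient of variation was 18.0% without the block and 9.96% with it. Exon lengths and overlaps came from GENCODE M21. The members and gene lists were chosen with earlier results of these data known. In the list of TGF-β targets, 1 gene is not reported here. Named genes were the 10 members, each list's called genes and its highest gene per length, and the 3 genes most like a called member. *Klf11*, *Klf12*, *Wwp1*, *Itch*, *Ctbp1*, *Kat2b*, *Smurf1*, the genes called only with the block, and the markers were named after their values were seen. Alternatives were DESeq2 1.42.0, other scalings and filters, the fold bound, subsets of replicates, each replicate left out and the ribosomal RNA share as a covariate. The code was tested on simulated data.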

Additional observations from a re-analysis of the deposited data

Results flagged for a closer look

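In 2 of the 40 groups of 4 libraries tested, 1 library stood far from the other 3 (its gap to the nearest of them exceeded Dixon's 95% critical share of the group's range), and chance flags about 5 in 100 groups. *Klf5* was at 1.87 CPM in sgRNA ctrl replicate 5, compared with 1.19 to 1.29 CPM in the other libraries of that group. *Klf15* was at 13.3 CPM in sgRNA iso replicate 5, compared with 9.33 to 9.56 CPM in the others.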

How the results depend on the processing

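Members called for isoproterenol numbered 1 averaged over plasmids, 1 in empty vector cells and 0 in sgRNA cells. With the replicate block, alone or with the ribosomal RNA share, they numbered 2, 2 and 1, and the blocked *Klf4* was called in each. Averaged over plasmids, 2 (*Klf4* and *Klf7*) were called by the DESeq2 Wald test, beside 1.35% of the genes with any count, in replicates 3 and 4 only (with and without the block) and with the block after the 3 libraries of high ribosomal RNA share were left out, and 0 were called by glmTreat against the fold bound and in replicates 5 and 6 only (1 with the block, *Klf4*). In empty vector cells 0 were called without the low-count filter, by glmTreat, in replicates 5 and 6 only and without those 3 libraries, and in replicates 3 and 4 only the 1 called was *Klf7*, not *Klf4*. With 1 replicate number or library left out, the counts ranged from 0 to 2 averaged over plasmids, from 1 to 2 with the block and from 0 to 1 in empty vector cells. The cause of these changes was not tested. For the sgRNA effect and the interaction the count was 0 in every setting run.

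Small log2 differences changed sign. With the block and the ribosomal RNA share, isoproterenol gave -0.061 for *Klf3* and 0.015 for *Klf5*, and sgRNA gave 0.27 for *Klf4*, 0.047 for *Klf7* and 0.061 for *Klf13*. Without the filter, sgRNA gave 0.018 for *Klf7* and 0.0058 for *Klf13*. In replicates 3 and 4 only, isoproterenol gave 0.0094 for *Klf6* and sgRNA 0.20 for *Klf4*. In replicates 5 and 6 only, isoproterenol gave -0.00024 for *Klf2*, -0.0013 for *Klf3*, 0.067 for *Klf5*, -0.015 for *Klf10* and 0.0064 for *Klf16*, sgRNA gave -0.013 for *Klf3* and 0.015 for *Klf7*, and the interaction gave 0.12 for *Klf7*. Without the 3 libraries, isoproterenol gave 0.044 for *Klf5* and 0.067 for *Klf16*, and sgRNA 0.091 for *Klf13*. Leaving out 1 replicate number or library, isoproterenol ranged from -0.26 to 0.45 for *Klf2*, -0.081 to 0.11 for *Klf3*, -0.19 to 0.080 for *Klf5*, -0.086 to 0.018 for *Klf6* and -0.084 to 0.0027 for *Klf16*, and sgRNA from -0.44 to 0.18 for *Klf2*, -0.058 to 0.14 for *Klf3*, -0.15 to 0.095 for *Klf4*, -0.11 to 0.074 for *Klf7* and -0.091 to 0.071 for *Klf13*. Depth limits *Klf2* and *Klf5*, with at most 22 and 25 counts per library.

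Over all genes, isoproterenol called 349 genes, 749 with the block, 557 in replicates 3 and 4, 64 in replicates 5 and 6, 63 by glmTreat, 469 by DESeq2, 120 without replicate 3, 170 without replicate 4 and 590 without a fold bound. In empty vector cells it called 109, and this count moved by over 1.5 times without replicate 3 (38) or 4 (35), empty ctrl replicate 3 (61), 5 (58) or 6 (181), or empty iso replicate 3 (67), 4 (70) or 6 (60). In sgRNA cells it called 92, and this count moved as far without replicate 3 (31), 4 (29) or 5 (58), sgRNA ctrl replicate 3 (47) or 5 (50), or sgRNA iso replicate 3 (61), 4 (61), 5 (59) or 6 (60).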
